A study of Mus musculus with 11 samples.

Results

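The endothelial genes of coagulation and fibrinolysis are described here in bone marrow endothelium from areas with and without mammary metastasis. The 8 genes are *Vwf*, *F8*, *F2r*, *Thbd*, *Procr*, *Pros1*, *Tfpi* and *Plat*, and they were chosen by name: each is the row of the deposited count table whose Entrez gene ID carries that symbol, 8 of 27179 rows. All 8 were among the 11948 genes that were abundant enough to be tested.

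The cells were CD31hi EMCNhi endothelial cells, the surface phenotype by which type H capillary cells are sorted, taken from the bone marrow of BALB/c mice aged 8 to 10 weeks. The gate alone does not show the type of vessel. Tumour-burdened animals carried 4T1.2 cells, a mammary cancer line from the same strain that spreads to bone and was labelled with red fluorescent protein. Microdissection by fluorescence gave infiltrated marrow (met, 3 libraries) and neighbouring marrow free of tumour (non-met, 6 libraries), and healthy animals of the same age and strain, without tumour, gave the controls (2 libraries). Burdened pools held 1 to 4 mice, the number of mice in a control pool is not given in the sources used here, and libraries were made from 700 to 5500 sorted cells. Libraries of the same pool share animals, and 3 of the 4 burdened pools hold both areas: met 1 shares pool 2 with non-met 2 and 6, met 2 shares pool 3 with non-met 3, met 3 shares pool 4 with non-met 4, and non-met 1 and 5 make up pool 1.

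Resting endothelium keeps blood fluid by holding both arms of haemostasis in balance. It stores von Willebrand factor, the carrier of factor VIII and the tether for platelets, in granules called Weibel-Palade bodies, and it senses thrombin through the receptor encoded by *F2r*. Against clotting it displays thrombomodulin (*Thbd*) and the endothelial protein C receptor (*Procr*), which together speed the activation of protein C. Protein S (*Pros1*) is the cofactor of activated protein C, and tissue factor pathway inhibitor (*Tfpi*) blocks the start of the cascade. Tissue plasminogen activator (*Plat*) starts the dissolution of fibrin by turning plasminogen into plasmin.

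Reads assigned to genes ranged from 733342 (non-met 4) to 19539761 (control 1), and the Spearman correlation of log2 CPM (read counts relative to library size, scaled by TMM) between libraries ranged from 0.47 to 0.741 across genes, which are not independent replicates. The sort markers were present in every library, with *Pecam1* (CD31) at 972 to 3163 CPM and *Emcn* at 351 to 1361 CPM. *Pecam1* passed the test as higher in met than in non-met (log2 fold change 0.89, adjusted P = 0.000441) and than in control (1.34, adjusted P = 7.72e-27), and *Emcn* as higher in met than in control (0.91, adjusted P = 1.65e-05). The met and non-met libraries overlapped in *Pecam1* (exact two-sided permutation P = 0.0476), every met library was above both controls in *Pecam1* (exact P = 0.1, the smallest that 10 splits allow), and met and control overlapped in *Emcn* (exact P = 0.3). With the 3 other tools none of these passed, at log2 fold changes of 0.50 to 0.69, 1.20 to 1.27 and 0.75 to 0.83, with adjusted P from 0.564 to 0.911, from 0.0513 to 0.427 and from 0.905 to 1, and all 3 calls were also lost with a term for 2 sets of libraries that differ in keratin reads (0.63, 0.96 and 0.80, adjusted P = 0.881, 0.403 and 0.618). Both controls lie in set 1 and all 3 met libraries in set 2, so this term compares met and control only through the non-met libraries. Group and set can hardly be told apart in that comparison. *Pecam1* in met against non-met was lost with mouse pool as a block as well (0.22, adjusted P = 1) but kept with the libraries of a pool summed (0.86, adjusted P = 0.000116). Without control 1 both calls against control were lost at larger folds (1.73, adjusted P = 0.464 for *Pecam1* and 1.38, adjusted P = 0.0571 for *Emcn*), as was that of *Emcn* without met 3 (0.62, adjusted P = 0.237). Markers of other cells were also present, although the sort gated out CD45+ and Ter-119+ cells, which would remove granulocytes, macrophages and red cells. The summed level of 8 granulocyte genes was 35.3 to 204 CPM in met, 397 to 4797 CPM in non-met and 77.8 to 359 CPM in control, with none of the 8 at 0 in every library. The sum of 10 stromal, osteolineage and mural genes was 490 to 2584 CPM in met, 1222 to 3884 CPM in non-met and 4053 to 10783 CPM in control, with *Bglap* at 0 in every library. Non-met therefore did not overlap met or control in the granulocyte sum, and control did not overlap the other groups in the stromal sum. The part of these cells in the results below was not tested, and in sorted pools a smaller share of cells with a transcript and less RNA per cell cannot be told apart.

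Per transcript length, *Tfpi* had the highest level of the 8 genes and *Vwf* the lowest. On the log2 RPKM scale (CPM divided by gene length in kilobases, prior count 2) the mean level over the 11 libraries was 9.30 ± 0.46 (SD) for *Tfpi*, 7.96 ± 0.78 for *Thbd*, 7.47 ± 0.64 for *Pros1*, 5.89 ± 1.28 for *F2r*, 4.66 ± 1.47 for *F8*, 4.63 ± 2.31 for *Procr*, 2.32 ± 3.20 for *Plat* and 0.68 ± 3.57 for *Vwf*. *Tfpi* was above *Thbd* in 11 of 11 libraries, with a level difference of 1.34 ± 0.43 (SD). *Pros1* was above *F2r* in 9 of 11, with a difference of 1.59 ± 1.15. The other neighbours in this order did not differ beyond their spread, and *F8* was above *Procr* in 6 of 11 libraries. The anticoagulant genes *Tfpi*, *Thbd* and *Pros1* thus held the top of the order, while *Procr*, also anticoagulant, was at rank 6.

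**Figure D1:**
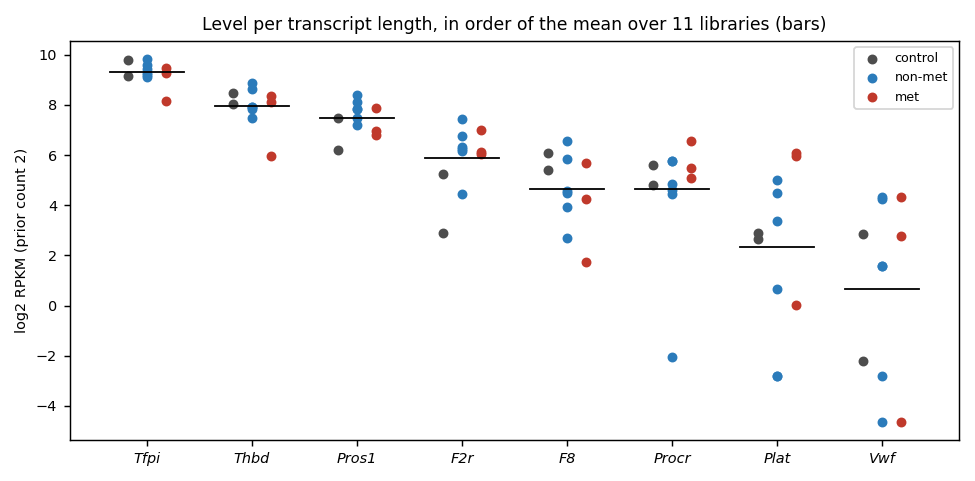
Level of each gene per transcript length (log2 RPKM, prior count 2) in the 11 libraries, with points coloured by group and a bar at the mean over all libraries. *Tfpi* lay between 8.15 and 9.84 in every library, while *Vwf* spread from -4.63 to 4.35.

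The spread between libraries was smallest for the 3 genes with the highest levels. The SD of log2 CPM over the 11 libraries was 0.46 for *Tfpi*, 0.64 for *Pros1* and 0.78 for *Thbd*, against a median SD of 1.34 among the genes tested that had a mean log2 CPM of at least 5. The mean log2 CPM of these 3 was 11.22, 9.18 and 9.86, against a median of 6.42 in that set. The comparison is thus not matched for level. The SD was 2.31 for *Procr*, 3.20 for *Plat* and 3.57 for *Vwf*, and these were the genes with libraries at 3 reads or fewer: 1 library for *Procr*, 3 for *Plat* and 3 for *Vwf*. *Plat* and *Vwf* thus had up to 1379 and 1566 reads in some libraries and none in others.

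None of the 8 genes passed an adjusted P of 0.05 in any of the 3 comparisons by the main test, voomLmFit with sample weights. The same test called 51 of 11948 genes between met and non-met (0.427%), 143 between met and control (1.2%) and 76 between non-met and control (0.636%). At an unadjusted P under 0.05 it gave 1 of the 8 between met and non-met (*Plat*) against 7.24% of all genes, 2 between met and control (*F8* and *F2r*) against 14.1%, and 5 between non-met and control (*F8*, *F2r*, *Thbd*, *Pros1* and *Tfpi*) against 17%. The median fitted log2 fold change of the 8 was 0.13, 0.19 and -0.15 in the 3 comparisons, and that of all genes tested was 0.08, -0.09 and -0.33.

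The other tools also called 0 of the 8. The edgeR quasi-likelihood test called 0.134%, 0.0837% and 0.117% of all genes in the 3 comparisons, taken in the same order, limma-trend 0.0167%, 0.0753% and 0.067%, and DESeq2 3.21%, 2.41% and 2.4% of the 10101 genes to which it gave an adjusted P. The lowest adjusted P of a member was 0.849, 0.886 and 0.944 by quasi-likelihood, 0.911, 0.872 and 0.716 by limma-trend, and 0.533, 0.367 and 0.148 by DESeq2. At an unadjusted P under 0.05 the numbers of members were 0, 1 and 1 by quasi-likelihood, 1, 1 and 2 by limma-trend, and 0, 1 and 2 by DESeq2.

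**Figure D2:**
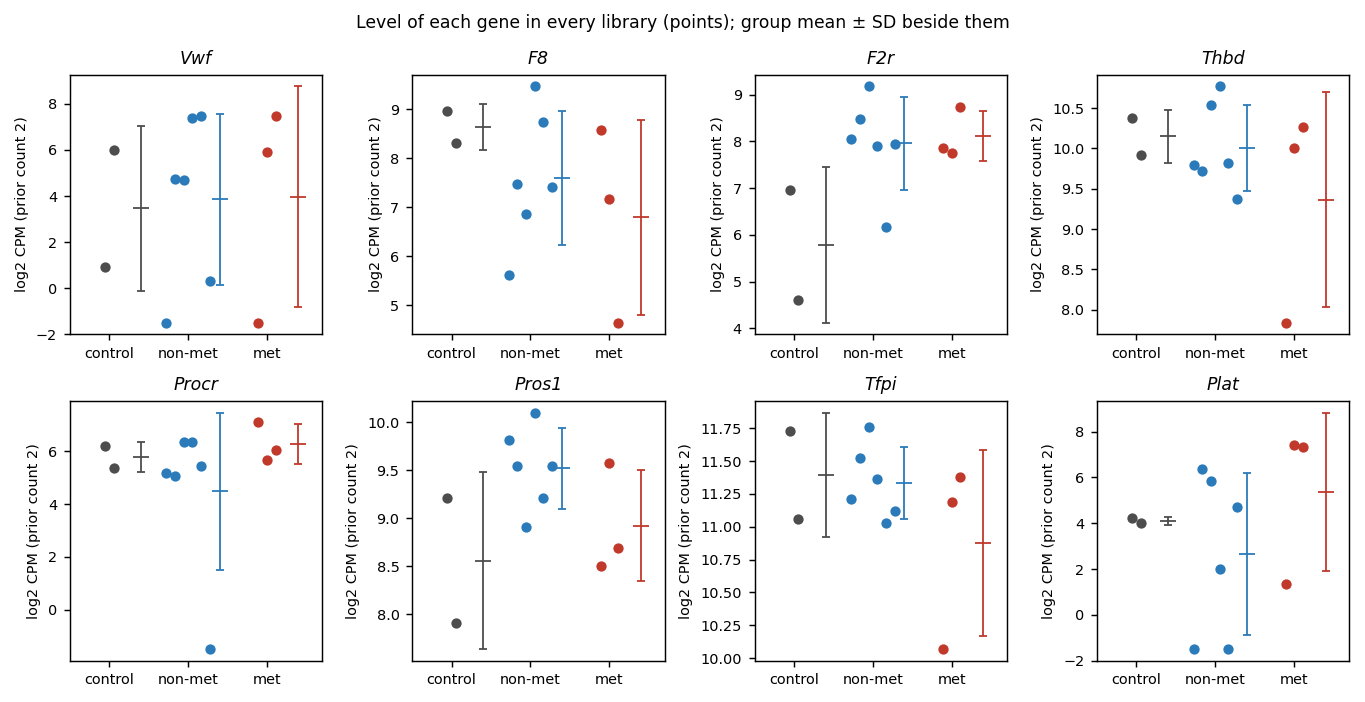
Level of the 8 genes (log2 CPM, prior count 2) in each of the 2 control, 6 non-met and 3 met libraries, with the group mean ± SD beside the points and a separate y axis for each gene. Among the 24 pairs of groups shown only *F2r* in met against control had no overlap between libraries.

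On the procoagulant side, *Vwf* (chromosome 6, 125552948 to 125686679, GRCm38.p6, as are all positions here) varied widely within every group. Its level was 0, 59.5 and 180 CPM in met 1 to 3, 0, 26, 25.8, 166, 179 and 0.888 CPM in non-met 1 to 6, and 1.56 and 63.5 CPM in the controls. The low and high libraries were thus split within each group, and non-met 1 and met 1 had no *Vwf* read at all, although they had 6702201 and 2547520 reads in total. By the fit the log2 fold change was 0.86 ± 2.59 (SE) for met against non-met (adjusted P = 0.97), 1.14 ± 2.61 for met against control (adjusted P = 0.895) and 0.28 ± 2.09 for non-met against control (adjusted P = 0.936). Megakaryocytes and platelets, which also hold *Vwf* transcripts and which the CD45 gate would remove in so far as they carry that marker, were followed by 8 marker genes, of which *Gp9* and *Gp6* were at 0 in every library. Their sum was 42.6 to 123 CPM in met, 0 to 57.7 CPM in non-met and 0 to 31.3 CPM in control. It was highest in met 1, where *Vwf* was at 0, and it was 0 in non-met 4 and 5, where *Vwf* was high, whereas in control it was 0 in control 1 and 31.3 CPM in control 2, the control with more *Vwf*. Its part in the *Vwf* level was not tested.

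*F8* (chromosome X, 75170344 to 75382738), which encodes clotting factor VIII and is made mainly by endothelium, had a lower mean in both burdened groups than in control, a difference that did not pass the test. Its level was 382, 142 and 24.6 CPM in met 1 to 3, 48.8, 177, 116, 707, 427 and 170 CPM in non-met 1 to 6, and 502 and 316 CPM in the controls. Met 1 lay within the control range, met 2 and 3 lay below it, and non-met 4 lay above it, so all 3 groups overlapped. The fitted log2 fold change was -2.80 ± 0.737 (SE) for met against control (adjusted P = 0.0617), -1.78 ± 0.483 for non-met against control (adjusted P = 0.0775) and -1.02 ± 0.844 for met against non-met (adjusted P = 0.81). The differences of unweighted means were smaller, -1.85 and -1.05 against control, with exact two-sided permutation P of 0.3 and 0.321. The fit gave 50.1% of the met weight to met 3, the lowest library, where the heaviest of 3 met libraries held a median of 39.7% over all genes.

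The call for *F8* was near the threshold and some settings crossed it. Without sample weights the adjusted P was 0.0102 for met against control (log2 fold change -3.07) and 0.0299 for non-met against control (-1.97). Leaving out control 2, non-met 1 or non-met 4 gave 0.0298, 0.0406 and 0.0459 for met against control, and leaving out control 2 gave 0.0273 for non-met against control. RLE scaling (adjusted P = 0.0499) and no filter on low counts (0.0363) also gave a call in met, and library size scaling did in non-met (0.0295). Without met 3 the difference between met and control was -1.19 (adjusted P = 0.425) and the sign between met and non-met turned (0.61, adjusted P = 0.831). Without control 1, which held 82.3% of the control weight, the differences against control were -2.19 in met and -1.24 in non-met. Over all alternatives the log2 fold change ran from -3.90 to -1.16 for met against control, with adjusted P from 0.0102 to 1, and from -2.31 to -0.42 for non-met against control, with adjusted P from 0.0273 to 1. The *F8* span shares 340 bases with the span of *Fundc2*, and whether the counting used strand is not given in the sources used here.

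*F2r* (chromosome 13, 95601780 to 95618466) encodes protease-activated receptor 1, the receptor through which thrombin signals to endothelium. Its level was 231, 215 and 427 CPM in met 1 to 3, 267, 358, 580, 239, 71.1 and 247 CPM in non-met 1 to 6, and 125 and 24.1 CPM in the controls. Every met library was above both controls, and 5 of 6 non-met libraries were, the exception being non-met 5. A lack of overlap between met and control was seen in 20.7% of all genes tested, against 1 of the 8 genes here. The fitted log2 fold change was 2.50 ± 1.1 (SE) for met against control (adjusted P = 0.289) and 2.45 ± 1.11 for non-met against control (adjusted P = 0.268), and the exact two-sided permutation P was 0.1, the smallest that 10 splits allow, and 0.0714. The fitted values stayed positive under every alternative, from 1.36 to 3.75 and from 1.28 to 3.65, with adjusted P from 0.204 to 0.886 and from 0.139 to 0.944. Between met and non-met the fitted difference of *F2r* was 0.05 ± 0.498 (adjusted P = 0.992), with a sign that turned under 8 of 23 alternatives. With mouse pool as a block it was -0.78 (adjusted P = 1), and within pools 2, 3 and 4 the difference in log2 CPM was -0.36, -1.43 and 0.84. The burdened groups share their controls, so the pair of differences against control is not independent.

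A window before a transcript start of *F2r* and one of *Procr* carry the same short element, and these stretches are shown because no other window of the 8 genes held it. The sequences are the 250 bases before a transcript start in RefSeq GRCm38.p6, on the strand of the gene, with the element TGANTCA, known as a binding element of AP-1, in capitals. It was searched on both strands, where it reads the same. The *F2r* window is chr13:95618467-95618716 on the minus strand, with the element beginning 204 bases before the start, and the *Procr* window is chr2:155750967-155751216 on the plus strand, with the element beginning 154 bases before it. The *Procr* start used here, base 155751217, lies 92 bases inside the gene span given for *Procr*, that of *F8* lies 2697 bases inside its span and those of *Tfpi* lie 16 and 2601 bases inside, so these windows do not reach back from the first base of the gene.
F2r: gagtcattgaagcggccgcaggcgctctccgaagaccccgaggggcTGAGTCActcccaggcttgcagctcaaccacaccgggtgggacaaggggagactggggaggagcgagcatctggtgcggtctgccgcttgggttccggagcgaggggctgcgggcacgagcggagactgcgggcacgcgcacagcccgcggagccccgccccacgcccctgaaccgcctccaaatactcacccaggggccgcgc
Procr: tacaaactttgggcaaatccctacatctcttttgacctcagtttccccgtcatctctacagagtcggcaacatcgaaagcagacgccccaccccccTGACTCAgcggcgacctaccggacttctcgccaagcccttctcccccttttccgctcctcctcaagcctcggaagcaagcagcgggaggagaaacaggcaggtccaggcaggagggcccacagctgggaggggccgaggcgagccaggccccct
Windows were on hand for 5 of the 8 genes (*F2r*, *Procr*, *F8*, *Pros1* and *Tfpi*, which has 2 starts), and the element was found in 2 of their 6 windows. Of all 32851 windows of this length 6.75% held it. The levels of *F2r* and *Procr* did not move together over the 11 libraries (Pearson r = -0.01, Spearman rho = 0.04, libraries sharing pools and groups).

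On the anticoagulant side, *Thbd* (chromosome 2, 148404471 to 148408188, a gene without introns) was abundant in every library and lowest in met 1. Its level was 229, 1021 and 1223 CPM in met 1 to 3, 894, 844, 1487, 1741, 905 and 663 CPM in non-met 1 to 6, and 1336 and 966 CPM in the controls. Apart from met 1 all libraries lay within a range of 663 to 1741 CPM, and the groups overlapped. Within each of the 3 pools that gave both kinds of library *Thbd* was lower in met, by a difference in log2 CPM of -1.71 in pool 2, -0.54 in pool 3 and -0.51 in pool 4, where 8.84% of all genes were lower in all 3 pools. The weighted fit nevertheless had the other sign for met against non-met, at 0.22 ± 0.262 (SE) on the log2 scale (adjusted P = 0.885), while the difference of unweighted means was -0.64 (exact two-sided permutation P = 0.333). The weighted fit rested on few libraries: met 3 held 66.4% of the met weight, non-met 2 held 54.3% of the non-met weight and control 1 held 99.9% of the control weight.

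Against control, *Thbd* had a fitted log2 fold change of -0.33 ± 0.223 (SE, adjusted P = 0.555) in met and -0.54 ± 0.139 (adjusted P = 0.0628) in non-met. The differences of unweighted means were -0.79 in met and -0.15 in non-met. Calls for non-met against control appeared without sample weights (-0.57, adjusted P = 0.02), with library size scaling (-0.72, adjusted P = 0.00198) and on leaving out control 2 (-0.54, adjusted P = 0.0104), non-met 3 (-0.63, adjusted P = 0.039) or met 3 (-0.55, adjusted P = 0.0309), and the adjusted P ran up to 1 over the alternatives. Without control 1, the library with nearly all of the control weight, the difference was -0.09 (adjusted P = 0.786), and with DESeq2 it was 0.0039 (adjusted P = 1).

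*Procr* (chromosome 2, 155751125 to 155755478) was present in 10 of the 11 libraries. Its level was 140, 50.6 and 66.9 CPM in met 1 to 3, 36.2, 32.8, 82.4, 81.4, 42.9 and 0 CPM in non-met 1 to 6, and 72.7 and 41.4 CPM in the controls. Non-met 6, which had 1146421 reads in total, had no read of *Procr*, and met 1 of the same pool had the most. In the fit *Procr* had a log2 fold change of 1.70 ± 1.37 (SE) between met and non-met (adjusted P = 0.804), 0.25 ± 1.17 between met and control (adjusted P = 0.938) and -1.46 ± 1.42 between non-met and control (adjusted P = 0.556). Without non-met 6 these were 0.50 between met and non-met (adjusted P = 0.949) and -0.24 between non-met and control (adjusted P = 0.906). Within pools the difference between met and non-met in log2 CPM was 5.35 in pool 2, -0.70 in pool 3 and -0.28 in pool 4, so the higher mean in met came from the pool of non-met 6. Met 1, the library with the least *Thbd*, thus had the most *Procr*, its partner in protein C activation.

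*Pros1* (chromosome 16, 62854307 to 62929346) was found in all libraries at 240 CPM or more. Its level was 363, 767 and 414 CPM in met 1 to 3, 903, 746, 481, 1095, 590 and 745 CPM in non-met 1 to 6, and 593 and 240 CPM in the controls. Met 1 and 3 lay below all non-met libraries and met 2 among them. Its fitted log2 fold change was -0.58 ± 0.281 (SE) between met and non-met (adjusted P = 0.694), 0.61 ± 0.283 between non-met and control (adjusted P = 0.281) and 0.03 ± 0.326 between met and control (adjusted P = 0.975). Between met and non-met it was -0.30 without met 3 (adjusted P = 0.848), -0.88 without met 2 (adjusted P = 0.705) and -0.27 with mouse pool as a block (adjusted P = 1). Without control 1 the value between non-met and control was 1.64 (adjusted P = 0.273), and without control 2 it was 0.33 (adjusted P = 0.244). Within pools the difference between met and non-met was -1.04, 0.67 and -1.40 in pools 2, 3 and 4. Protein S is also made by macrophages, and the sum of 9 monocyte and macrophage markers was 354 to 877 CPM in met, 460 to 1398 CPM in non-met and 999 to 1562 CPM in control, with *C1qa* and *C1qb* at 0 in every library. Its part in the *Pros1* level was not tested.

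*Tfpi* (chromosome 2, 84432855 to 84476775) was the steadiest of the 8 genes. Its level was 1074, 2329 and 2661 CPM in met 1 to 3, 2365, 2944, 3472, 2620, 2090 and 2218 CPM in non-met 1 to 6, and 3400 and 2138 CPM in the controls. Only met 1 fell outside a range of 2090 to 3472 CPM. For *Tfpi* the fit gave a log2 fold change of -0.12 ± 0.0789 (SE) between met and non-met (adjusted P = 0.753), 0.12 ± 0.104 between met and control (adjusted P = 0.647) and 0.25 ± 0.0922 between non-met and control (adjusted P = 0.18). These fits gave 92.8% of the met weight to met 3 and 84.3% of the non-met weight to non-met 2, and the unweighted differences were -0.45, -0.52 and -0.06, the last 2 of opposite sign.

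With mouse pool as a block the *Tfpi* difference between met and non-met was -0.58 (adjusted P = 0.00628), the sole member called in that fit, while with the libraries of a pool summed it was -0.14 (adjusted P = 0.923). The differences in log2 CPM within pools 2, 3 and 4 were -1.25, -0.58 and 0.02. The same comparison passed with RLE scaling (-0.24, adjusted P = 0.00184) and without control 1 (-0.11, adjusted P = 0.0289), and it turned to 0.14 (adjusted P = 0.835) without non-met 2. Its adjusted P over all alternatives ran from 0.00184 to 0.972. The differences against control turned sign under 14 of 21 alternatives for met and 11 of 22 for non-met. *Tfpi* in non-met passed against control without control 1 (0.48, adjusted P = 0.0457), without non-met 3 (0.35, adjusted P = 0.0285) and without met 3 (0.34, adjusted P = 0.0368), and with no filter on low counts it passed in met (0.35, adjusted P = 0.00206) and in non-met (0.44, adjusted P = 8.72e-05).

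**Figure D3:**
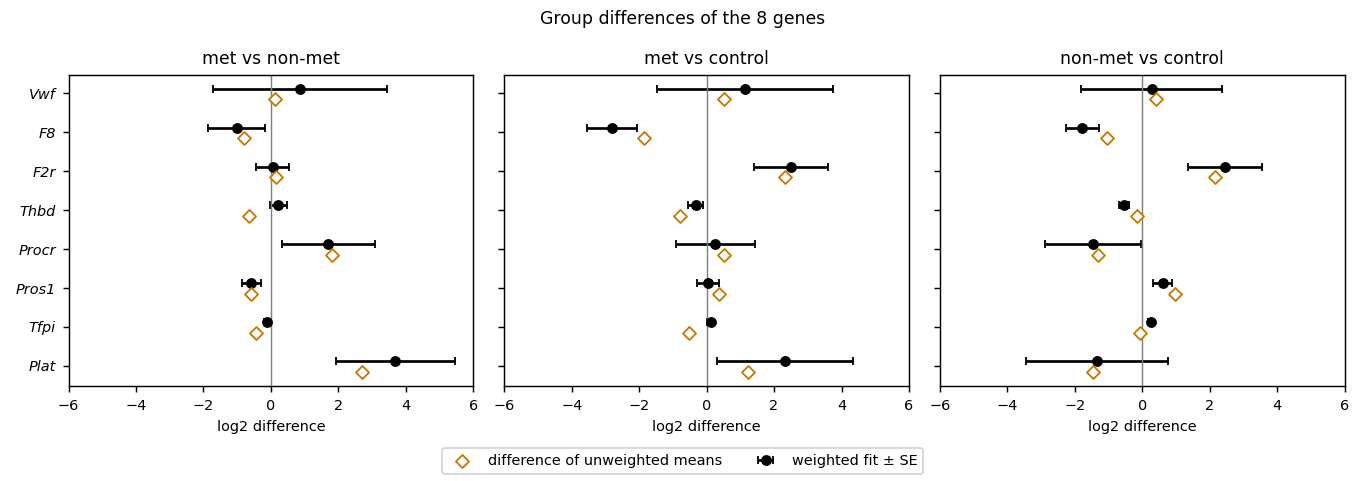
Log2 difference of each gene in the 3 comparisons, with the weighted voomLmFit estimate ± SE (filled circles) and the difference of unweighted mean log2 CPM (open diamonds). *Thbd* between met and non-met (0.22 and -0.64) and *Tfpi* against control have estimates on opposite sides of 0.

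*Thbd* and *Tfpi* had the highest Pearson r of the 28 pairs among the 8 genes, with r = 0.88 and Spearman rho = 0.62 over the 11 libraries. Without met 1 and non-met 4, the libraries farthest from the median of *Thbd*, r was 0.71. The order of pairs did not hold without those 2 libraries, since *Thbd* and *Procr* then had r = 0.76, against 0.12 over all 11. The *Thbd* and *Tfpi* pair was picked as the highest of 28, so no P is given, and the libraries share pools, groups and depth. The most negative pair was *F8* and *F2r* (r = -0.50, rho = -0.65), the genes with the lowest and the highest fitted fold change against control in both burdened groups.

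For fibrinolysis, *Plat* (chromosome 8, 22757722 to 22782848) ranged from absent to abundant. Its level was 2.2, 171 and 158 CPM in met 1 to 3, 0, 81.9, 56.9, 3.62, 0 and 25.8 CPM in non-met 1 to 6, and 18.6 and 15.6 CPM in the controls. Met 2 and 3 were the highest of the 11 libraries, and met 1 lay below both controls and among the low non-met libraries. *Plat* had a fitted log2 fold change of 3.69 ± 1.77 (SE) between met and non-met (adjusted P = 0.686), 2.33 ± 2.02 between met and control (adjusted P = 0.661) and -1.35 ± 2.1 between non-met and control (adjusted P = 0.706). The last ran from -2.03 without non-met 6 to -0.49 without non-met 1 when single libraries were left out. The exact two-sided permutation P between met and non-met was 0.298. Within pools the difference in log2 CPM was -4.18 in pool 2, 1.58 in pool 3 and 5.32 in pool 4, so the pools did not share a direction. The sum of 5 epithelial markers of the mammary tumour was 10.4 to 69.7 CPM in met, 1.44 to 133 CPM in non-met and 0.782 to 19.5 CPM in control, with none at 0 in every library, and its part in the *Plat* level was not tested. The gate on CD31 and EMCN would remove tumour cells. *Plat* in met against non-met stayed above 0 under every alternative, from 0.96 to 4.70, with adjusted P from 0.173 to 1.

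**Figure D4:**
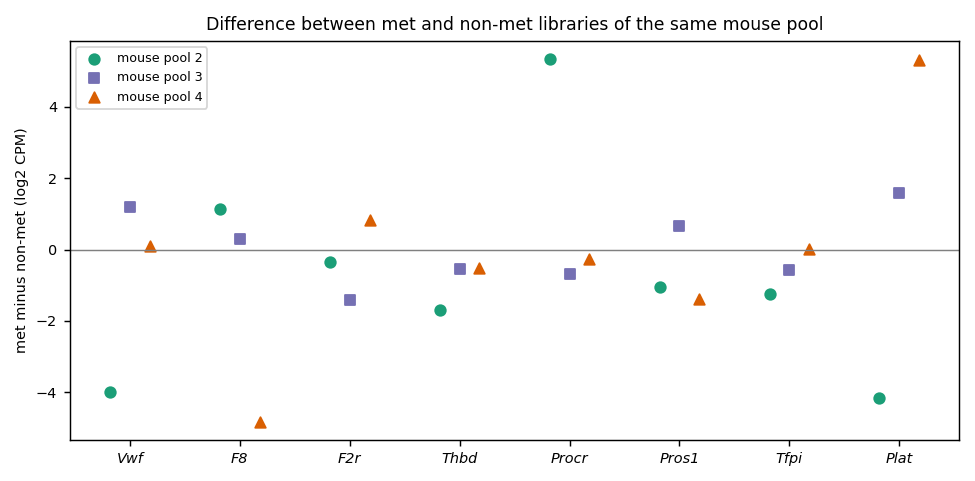
Difference in log2 CPM between the met library and the non-met libraries of the same mouse pool, for the 8 genes in pools 2, 3 and 4 (the mean of non-met 2 and 6 was used in pool 2). *Thbd* is the sole gene on the same side of 0 in all 3 pools (-1.71, -0.54 and -0.51).

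*Plau*, the gene of the other plasminogen activator, was at 211, 238 and 37.4 CPM in met 1 to 3, 2.12 to 418 CPM in non-met and 187 and 47.8 CPM in control, with a fitted log2 fold change of 0.40 ± 1.12 (SE, adjusted P = 0.964) between met and non-met.

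The trigger of the cascade, tissue factor (*F3*), was at or under 3 reads in all 11 libraries, with 9 reads in total. In the 6 libraries with no *F3* read, *Tfpi* per length was at least 240-fold to 11507-fold above a floor of 3 *F3* reads. Nothing more can be said of the balance of these genes at this depth, and the bound covers counting error only.

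Of 59 other genes of the pathway in 8 lists, 35 were tested and 18 were at or under 3 reads in every library. Between met and non-met 0 of the 35 passed the adjusted test, between met and control 1 was higher (*Anxa2*) and 1 lower (*Stab2*), and between non-met and control 0 were higher and 1 was lower (*Stab2*), beside the shares of all genes given above. The median fitted log2 fold change of the 35 was -0.08, 0.66 and 0.85 in the 3 comparisons, and that of all genes tested was 0.08, -0.09 and -0.33. Some of the fits against control gave most of the control weight to control 2 where it held no read of the gene. The part of this in the medians was not tested.

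The lists differed in how much of them the cells expressed. Of 15 clotting factors and cofactors, mostly liver products, 3 were tested, 8 stayed at or under 3 reads in every library and 1 had a mean of at least 10 CPM. Of 9 other anticoagulant genes 3 were tested and 6 were at or under 3 reads throughout, and of 3 other protease-activated receptors 1 was tested. By contrast 8 of 11 fibrinolysis genes, 9 of 10 genes for handling von Willebrand factor and factor VIII, 5 of 5 genes of the vitamin K cycle and phosphatidylserine exposure, 4 of 4 antiplatelet genes and both transcription factors that induce *Thbd* were tested.

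Among the fibrinolysis genes *Anxa2* rose in met against control. It encodes annexin A2, a surface receptor that binds plasminogen and its activator together with the product of *S100a10*. Its level was 440, 703 and 536 CPM in met 1 to 3, 376 to 581 CPM in non-met (median 442) and 236 and 272 CPM in control, with every burdened library above both controls. The log2 fold change was 1.23 ± 0.247 (SE, adjusted P = 0.0074) in met and 0.86 ± 0.278 (adjusted P = 0.121) in non-met. A gap of this kind was found in 20.7% of all genes for met and in 6.29% for non-met. The call was lost without control 1 (1.11, adjusted P = 0.391), without met 2 (1.08, adjusted P = 0.15) and without met 3 (1.32, adjusted P = 0.139), with libraries of a pool summed (1.28, adjusted P = 0.096), with the term for library sets (1.32, adjusted P = 0.436), and with all 3 other tools (1.04 to 1.14, adjusted P from 0.542 to 0.992). The term for library sets compares met and control only through the non-met libraries, since met and control share no set. *S100a10* had a log2 fold change of 1.13 ± 0.831 (adjusted P = 0.593) in met against control. Met and control did not overlap in a sum of 8 general endothelial genes (11300 to 13634 against 6486 to 9717 CPM). The same held for the monocyte and macrophage, megakaryocyte and platelet, and stromal sums. Their part in the *Anxa2* difference was not tested.

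*Serpine2*, which encodes protease nexin-1, an inhibitor of thrombin and of the plasminogen activators, was lower in every met library than in every non-met library. Its level was 103, 95.1 and 127 CPM in met 1 to 3, 168 to 978 CPM in non-met (median 288) and 222 and 239 CPM in control. *Serpine2* differed between met and non-met by -1.52 ± 0.667 (SE) on the log2 scale (adjusted P = 0.633), with an exact two-sided permutation P of 0.0357 and within-pool differences of -1.02, -2.32 and -0.70. It passed with DESeq2 (-2.07, adjusted P = 0.017), and its adjusted P over all alternatives ran up to 1. Separation of met and non-met was seen in 1.98% of all genes tested, and in 3 of the 35 list genes, 1 of which (*Rab27a*) was among the genes tested only because of its met reads and carries no information here.

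The other 2 were *Klf4* and *Rab27a*. *Klf4*, a transcription factor known to induce *Thbd*, was at 360, 331 and 772 CPM in met 1 to 3, 797 to 1634 CPM in non-met (median 1008) and 893 and 948 CPM in control. For met against non-met the log2 fold change of *Klf4* was -0.97 ± 0.275 (SE, adjusted P = 0.198), with an exact two-sided permutation P of 0.0119, the smallest that 84 splits allow, and 1 after adjustment over all genes. It passed with mouse pool as a block (-1.60, adjusted P = 0.0441) and with DESeq2 (-1.26, adjusted P = 0.013), and with the libraries of a pool summed it was -1.05 (adjusted P = 0.443). Without met 3 it was -1.67 (adjusted P = 0.217) and without met 2 it was -0.69 (adjusted P = 0.703). *Klf2*, the other factor of this kind, overlapped between met (174 to 548 CPM) and non-met (346 to 909 CPM). *Rab27a*, a GTPase of the Weibel-Palade body, was at 53.7, 21.6 and 7.8 CPM in met 1 to 3 (304 reads in all), while the 6 non-met libraries held 1 read and the controls 0. *Rab27a* passed the filter on low counts only through its met reads, so it had to differ once tested, and no fold or test is given for it. The granulocyte marker sum separated the same groups (35.3 to 204 CPM in met, 397 to 4797 CPM in non-met), and its part in these 3 genes was not tested.

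Among the genes that handle von Willebrand factor and factor VIII, *Stab2* fell in both burdened groups against control. It encodes stabilin-2, a scavenger receptor of sinusoidal endothelium known to clear both proteins from blood. Its level was 935, 1184 and 1331 CPM in met 1 to 3, 920 to 1844 CPM in non-met (median 1644) and 3364 and 2371 CPM in control, with every burdened library below both controls. A gap of this kind was found in 20.7% of all genes for met and in 6.29% for non-met. The exact two-sided permutation P was 0.1 and 0.0357, the smallest that 10 and 28 splits allow. Control 2 held 88.4% of the control weight, met 3 held 77.8% of the met weight and non-met 2 held 64.3% of the non-met weight. The log2 fold change was -0.94 ± 0.151 (SE, adjusted P = 0.000571) in met and -0.58 ± 0.113 (adjusted P = 0.0134) in non-met, and -0.35 ± 0.181 (adjusted P = 0.722) between met and non-met. The call in met was lost without met 2 (-1.03, adjusted P = 0.153) or met 3 (-1.10, adjusted P = 0.166), with the quasi-likelihood test (-1.32, adjusted P = 0.313), with limma-trend (-1.31, adjusted P = 0.0778) and with the term for library sets (-1.11, adjusted P = 0.546). Met and control share no set, so that term compares them only through the non-met libraries. The call in non-met was lost with all 3 other tools, at log2 fold changes of -0.88 to -0.79 and adjusted P from 0.278 to 0.659, with the term for library sets (-0.77, adjusted P = 0.106), within the set that holds both controls (-0.90, adjusted P = 0.0634), and without non-met 1 (-0.67, adjusted P = 0.0743), non-met 2 (-0.68, adjusted P = 0.107), non-met 4 (-0.66, adjusted P = 0.0753), non-met 6 (-0.79, adjusted P = 0.0658) or met 1 (-0.90, adjusted P = 0.0628). The sum of the 3 other sinusoidal markers, of which *Lyve1* was at 0 in every library, was 2338 to 2940 CPM in met, 1848 to 3559 CPM in non-met and 1979 to 3110 CPM in control, so this sum overlapped between all 3 groups. The stromal sum was higher in control, and the granulocyte sum was higher in non-met than in control (397 to 4797 against 77.8 to 359 CPM). Mitochondrial genes held 6.72% to 17.8% of the reads in non-met and 5.4% and 6.2% in control. A sum of 8 general endothelial genes was 11300 to 13634 CPM in met and 6486 to 9717 CPM in control. The part of each in the *Stab2* difference was not tested.

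**Figure D5:**
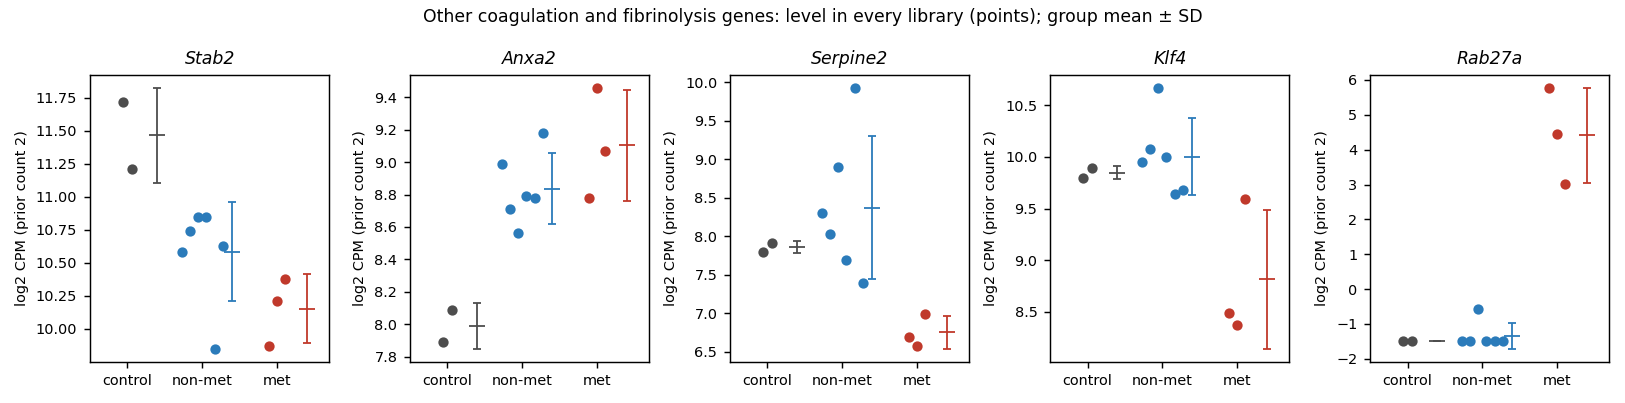
Level (log2 CPM, prior count 2) in every library of the 5 other pathway genes that passed the test in a comparison (*Stab2*, *Anxa2*) or did not overlap between met and non-met (*Serpine2*, *Klf4*, *Rab27a*), with the group mean ± SD beside the points and a separate y axis for each gene. The *Rab27a* points at -1.49 are libraries with no read.

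The genes with the highest correlation to each of the 8 over the 11 libraries are named here. They were picked from about 3565 candidates, so the absence of members among them carries no information. *Vwf* and *Plat*, at a mean log2 CPM of 3.82 and 3.66, were under the minimum level and could not be picked. Among the genes tested with a mean log2 CPM of at least 5, the highest Pearson r was 0.98 for *Procr* with *Ifnar2*, 0.95 for *Thbd* with *Zfp423*, 0.93 for *F2r* with *Trip11*, 0.92 for *Tfpi* with *Ndfip1*, 0.91 for *Plat* with *Park7*, 0.90 for *F8* with *Sipa1* and 0.86 for *Pros1* with *Spen*. The second genes were *Ddx42* (0.97), *Tpst2* (0.94), *Rrp1* (0.92), *Vps13d* (0.92), *Cul1* (0.85), *2410002F23Rik* (0.83) and *Smarca4* (0.85), in the same order, and *Vwf* had an r of 0.85 with *Eif3f*. These are the highest of about 3565 values each and are given as a description. Without the 2 libraries farthest from the median of the member, r of these first pairs ranged from 0.63 for *F2r* with *Trip11* to 0.87 for *Thbd* with *Zfp423*, and was 0.64 for *Procr* with *Ifnar2*, where the libraries left out were non-met 6 and met 1, and 0.66 for *Vwf* with *Eif3f*.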

How the data were processed

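RNA was measured in sorted endothelial cells by sequencing of low-input full-length libraries. Per the study's methods and the labels, alignment to mm10 was done by the authors with Rsubread, and featureCounts gave the raw counts per Entrez gene that were deposited, without normalisation. The deposited table of the series matched the 11 tables of single libraries in every count.

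Symbols and positions came from RefSeq GRCm38.p6. Rows without a name (1886), predicted genes (1794) and ribosomal RNA (36) were left out, which held 1.94% to 15.7% of the reads in each library. filterByExpr (minimum count 10, minimum total 15) chose the genes, which were scaled by TMM and tested with voomLmFit and empirical sample weights (edgeR 4.0.16, limma 3.58.1) in 1 model of 11 libraries and 3 groups, after the authors' stated method. P values were adjusted by Benjamini-Hochberg over 11948 genes, with a threshold of 0.05. Log2 CPM and log2 RPKM used a prior count of 2. Permutation tests were exact and two-sided, over 84, 10 and 28 splits. The code of the tests was checked on simulated counts with known changes. Each run used a single setting of the spread for all genes and libraries, unlike these data. The check therefore does not show how the tests perform here.

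The members and lists were chosen with earlier results of these data known. Genes named are the 8, list genes that passed the test or did not overlap between met and non-met, *F3*, *Plau*, the sort markers and the 2 genes closest to each member (1 for *Vwf*), and *S100a10* and *Klf2* were added after their values were seen. Results of a gene of the rule, of a ratio planned with it and of a further gene are not reported here. Libraries of 1 pool come from the same animals per the labels, so the pool was used as a block in an alternative. Spearman correlations of their deviations from group means, across genes, were -0.02 to 0.02 between met and non-met of the same pool and -0.21 and -0.17 between non-met libraries of the same pool. Between met and non-met of different pools they were -0.05 to 0.07. Deviations from a mean that includes both libraries are negatively correlated by construction, so the values within non-met cannot show an effect of shared animals. No 2 libraries held identical counts. As alternatives, the fit was repeated with edgeR's quasi-likelihood test, DESeq2 1.42.0, limma-trend, no sample weights, RLE or library size scaling, no filter, a mean of at least 5 CPM, the pool block, summed libraries of a pool and each library left out. Fits with library set (by keratin reads, split at 7 CPM), and all alternatives for list genes and sort markers, were chosen after seeing the data.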

Additional observations from a re-analysis of the deposited data

Results flagged for a closer look

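In the 6 non-met libraries, 3 of the 13 genes examined had 1 library apart from the others. The rule allows about 1 in 20 groups by chance. That rate was not measured over all genes here, so no excess can be read from the count. *Procr* had no read in non-met 6, and the gap to the next library was 0.832 of the range. *Stab2* was lowest in non-met 5 (920 CPM), with a gap of 0.728 of the range. *Rab27a* had 1 read in non-met 3 and none in the others, so the gap made up all of the range (1). All 6 libraries of *Rab27a* were at or under 3 reads, so this gap was fixed by its construction and carries no information.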

How the results depend on the processing

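The count of members called, 0 in each comparison, moved with the processing. Between met and non-met it was 1 (*Tfpi*) with RLE scaling, 1 with mouse pool as a replicate block, and 0 to 1 when single libraries were left out. Between met and control it was 1 (*F8*) without sample weights, 1 with RLE scaling, 2 (*Tfpi*, *F8*) with no filter, and 0 to 1 when single libraries were left out. Between non-met and control it was 2 (*Thbd*, *F8*) without sample weights, 2 with library size scaling, 1 (*Tfpi*) with no filter, and 0 to 2 when single libraries were left out. The block on pool changed no other call of a member. The cause of these moves was not tested.

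Of 264 fitted values of members under alternatives other than leaving out a library, 38 had the opposite sign to the main fit, and 34 of 264 did when a library was left out, none of them past the threshold. In met against non-met the sign turned for *Vwf* (-0.02), *F2r* (-0.12) and *Thbd* (-0.58) with DESeq2, for *F2r* (-0.01) and *Thbd* (-0.40) with quasi-likelihood, for *Thbd* (-0.64) with limma-trend, for *F2r* (-0.10) with RLE scaling, for *F2r* (-0.78) and *Thbd* (-0.60) with the pool block, and for *Vwf* (-0.52) and *F2r* (-0.07) with summed libraries of a pool. In met against control it turned for *Tfpi* with quasi-likelihood (-0.45), DESeq2 (-0.53), limma-trend (-0.52), a mean of at least 5 CPM (-0.12) and summed libraries (-0.40), and for *Pros1* without sample weights (-0.25), with RLE (-0.11) or library size scaling (-0.14) and with the 5 CPM minimum (-0.0059). In non-met against control it turned for *Tfpi* under the same 5 settings (-0.08, -0.0012, -0.06, -0.0061 and -0.26), for *Thbd* with DESeq2 (0.0039), for *Plat* with quasi-likelihood (0.72) and DESeq2 (0.70), and for *Vwf* with no filter (-0.08). With a term for library set it turned for *Vwf* in all 3 comparisons (-0.24, -3.40 and -3.16), for *Thbd* in met against non-met (-0.21) and for *Tfpi* against control (-0.33 and -0.09). Met and control share no set, so their comparison with this term runs only through the non-met libraries. Within library set 1 (both controls, non-met 1 and 2) *Vwf* was at -1.06 and *Tfpi* at -0.14 in non-met against control, and within set 2 *Thbd* was at -0.28 in met against non-met.

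Leaving out single libraries gave -3.12 to 3.20, -2.69 to 3.77 and -2.44 to 2.89 for *Vwf* in the 3 comparisons, -1.49 to 0.61 for *F8*, -0.46 to 0.28 for *F2r*, -0.58 to 0.37 for *Thbd* and -0.49 to 0.14 for *Tfpi* in met against non-met, -1.13 to 0.20 for *Thbd*, -0.09 to 0.72 for *Procr*, -0.26 to 1.07 for *Pros1*, -0.35 to 0.37 for *Tfpi* and -0.41 to 3.30 for *Plat* in met against control, and -0.25 to 0.48 for *Tfpi* in non-met against control. A prior count of 0.5 turned the permuted *Vwf* difference in met to -0.16 against non-met and -0.06 against control. The planned test of the *Tfpi* to *F3* ratio was not run, since *F3* was at or under 3 reads throughout. With 2 controls, leaving out 1 assumes that the lone library varies like the other groups.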
